A study of Mus musculus with 8 samples.

Results

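The CXC chemokine ligands described here are 8 genes, Cxcl1, Cxcl2, Cxcl9, Cxcl10, Cxcl12, Cxcl13, Cxcl14 and Cxcl16, taken by symbol from the 55450 genes of the deposited matrix. They were picked with their levels in these livers already known, so their levels are given as a description and no test is attached to them. Single liver cells came from 8 wild-type C57BL/6 mice. The 2 control mice received a normal diet and drinking water. The 3 HFD+F+CCl4 mice received a high-fat diet and fructose solution together with carbon tetrachloride injected into the peritoneum, and the 3 WD+F+CCl4 mice received a western diet with the same fructose and carbon tetrachloride. The last 2 groups are models of nonalcoholic steatohepatitis (NASH) with fibrosis, and are called the NASH mice where they are combined. The sources used here state neither age nor sex. Livers were cut up and dissociated with collagenase IV, papain and DNase I, and the suspension was cleared of red cells by lysis and of dead cells with magnetic beads before it was loaded. Values are CPM, the UMIs of a gene scaled to a total of 1000000 UMIs over the cells named.

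CXC chemokines are small secreted proteins that draw leukocytes along a gradient by binding receptors of the CXCR family, and they take their name from a pair of cysteines with 1 residue between them. Cxcl1 and Cxcl2 bind Cxcr2 and recruit neutrophils. Cxcl9 and Cxcl10 are induced by interferon-gamma and act on T and NK cells through Cxcr3. Cxcl12 binds Cxcr4, and the scavenging receptor Ackr3, and retains or guides many leukocytes and stem cells. Cxcl13 guides B cells through Cxcr5. Cxcl16 is made as a membrane protein, is shed by the proteases Adam10 and Adam17, and binds Cxcr6 on T and NKT cells. Cxcl14 is a homeostatic ligand of many epithelia whose receptor is less certain. In the liver these ligands are made by resident and recruited cells alike and help to decide which leukocytes enter an injured lobule.

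The coding sequence around the name-giving cysteines shows how the 8 ligands differ. Each line gives 13 codons of the first GENCODE M21 transcript, 5′ to 3′, with the 2 cysteine codons in capitals, and in Cxcl1 and Cxcl2 the 3 codons for glutamate, leucine and arginine before them are in capitals too. That triplet marks the ligands that act on neutrophils.
Cxcl1: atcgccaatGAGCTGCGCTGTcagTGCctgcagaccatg
Cxcl2: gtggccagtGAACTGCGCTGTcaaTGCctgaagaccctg
Cxcl9: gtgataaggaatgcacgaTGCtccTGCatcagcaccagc
Cxcl10: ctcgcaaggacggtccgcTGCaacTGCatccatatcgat
Cxcl12: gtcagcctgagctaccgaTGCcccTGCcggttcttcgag
Cxcl13: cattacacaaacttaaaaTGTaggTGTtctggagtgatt
Cxcl14: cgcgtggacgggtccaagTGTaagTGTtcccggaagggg
Cxcl16: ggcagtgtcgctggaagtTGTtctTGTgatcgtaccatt
The first cysteine is codon 25 in Cxcl14 and lies between codons 30 and 36 in the other ligands. Cxcl16 has 246 coding codons, against 96 to 126 in the other 7, since it carries a stalk and a membrane span behind the chemokine domain. The triplet was found before the cysteines in 2 of the 8 ligands.

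On GRCm38, with GENCODE M21 gene ends, 5 of the 8 genes lie on chromosome 5. These are Cxcl1 (chr5:90891241-90893115, plus strand), Cxcl2 (chr5:90903871-90905938, plus), Cxcl9 (chr5:92321347-92328079, minus), Cxcl10 (chr5:92346638-92348889, minus) and Cxcl13 (chr5:95956951-95961068, plus). The other 3 lie apart, Cxcl12 at chr6:117168535-117181367 (plus), Cxcl14 at chr13:56288643-56296551 (minus) and Cxcl16 at chr11:70453983-70459984 (minus). The identifiers in the matrix matched the annotation for all 8, from ENSMUSG00000029380 for Cxcl1 to ENSMUSG00000021508 for Cxcl14.

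Promoter sequence is shown for 4 ligands with contrasting patterns in these livers, Cxcl2, Cxcl9, Cxcl10 and Cxcl14. Each run is the 250 bases before the RefSeq gene start on GRCm38.p6, written 5′ to 3′ on the gene's strand, with the matches to the motifs that were searched in capitals.
Cxcl2 (chr5:90903649-90903898, plus strand): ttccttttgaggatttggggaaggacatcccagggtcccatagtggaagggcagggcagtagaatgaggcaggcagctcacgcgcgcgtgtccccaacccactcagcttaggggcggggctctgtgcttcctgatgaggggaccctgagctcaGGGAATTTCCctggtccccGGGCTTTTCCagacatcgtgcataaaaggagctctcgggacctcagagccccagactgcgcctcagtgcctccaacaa
Cxcl9 (chr5:92328080-92328329, minus strand): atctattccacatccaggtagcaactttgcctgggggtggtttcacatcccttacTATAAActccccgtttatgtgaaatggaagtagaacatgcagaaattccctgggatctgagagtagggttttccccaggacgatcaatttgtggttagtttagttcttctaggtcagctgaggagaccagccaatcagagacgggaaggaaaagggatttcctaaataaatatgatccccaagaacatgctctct
Cxcl10 (chr5:92348890-92349139, minus strand): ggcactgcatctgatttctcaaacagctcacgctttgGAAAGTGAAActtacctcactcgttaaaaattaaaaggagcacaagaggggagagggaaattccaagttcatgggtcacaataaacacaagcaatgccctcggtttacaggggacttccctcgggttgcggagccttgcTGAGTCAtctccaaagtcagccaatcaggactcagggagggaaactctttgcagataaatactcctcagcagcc
Cxcl14 (chr13:56296552-56296801, minus strand): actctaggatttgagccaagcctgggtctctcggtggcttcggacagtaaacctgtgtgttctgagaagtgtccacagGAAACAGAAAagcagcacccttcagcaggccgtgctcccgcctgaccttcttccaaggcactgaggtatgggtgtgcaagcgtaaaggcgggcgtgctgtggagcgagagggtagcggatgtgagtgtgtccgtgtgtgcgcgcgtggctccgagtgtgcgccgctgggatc
The 4 motifs named next were searched on both strands in the 32851 promoters of that length, and a match describes letters, not a bound site. The NF-kB pattern (GGG, any 2 bases, then TTTCC), held by 1.41% of all promoters, stood at 97 and 78 bases before the start of Cxcl2 and at 89 and 71 bases before that of Cxcl1. The interferon-stimulated response element (GAAA, any 2 bases, then GAAA again), held by 2.98%, stood 213 bases before the start of Cxcl10 and 172 before that of Cxcl14. The AP-1 pattern TGANTCA (6.75% of promoters) matched 74 bases before the start of Cxcl10. The TATA box letters TATAAA (12.4%) matched 195 bases before the start of Cxcl9 and 46 before that of Cxcl13. None of the 4 patterns matched in the Cxcl12 window. The Cxcl16 promoter was not analysed here.

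Limits on genes (over 500) and on the mitochondrial share of UMIs (below 25%) left 4168 to 11999 cells per mouse with 5305581 to 63878061 UMIs. Control replicate 2 stood apart as the shallowest library, with a median of 992.5 UMIs per cell against 2397 in control replicate 1 and 3159 to 4278 in the NASH mice. Any pair of libraries shared 8 to 46 barcode sequences. Clusters were named from marker genes, so that "macrophages" stands for macrophage-like cells, and likewise for each type. Unnamed clusters held 24.1% and 71.5% of the control cells and 2.94% to 8.99% of the NASH cells, and most of the control ones were in clusters led by hepatocyte genes. The 8 genes listed for liver-secreted RNA summed to 3865 and 4356 CPM over the control libraries and to 398 to 1398 CPM over the NASH libraries. Different clusters held most of a type in the groups for classical monocytes, T cells and B cells, whose control cells lay mainly in clusters led by Stxbp6 and Cd177, by Cxcr6 and Il4, and by Fcer2a and Ighd. Of the 26 and 21 control macrophages, 12 and 19 lay in the cluster led by Spon1 and Il1rn, while 2339 of 3161 macrophages of HFD+F+CCl4 replicate 1 lay in the one led by C1qa. What these differences contribute to the levels below was not tested.

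Over all kept cells of a mouse, Cxcl14, Cxcl2, Cxcl16 and Cxcl1 were higher in every NASH mouse than in both control mice, and Cxcl10 was lower in every NASH mouse. Of the 19787 genes that passed the filter on low counts, 16.4% lay above in every NASH mouse and 25.6% below. All 8 ligands passed the filter. Since the ligands were chosen from these values, nothing is read from the counts of 4 and 1. In such sums, more or fewer cells of a type and more or less RNA per cell cannot be told apart.

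Cxcl14 showed the widest ratio of group means. Its level was 0.195 and 0.565 CPM in the control mice, from 7 and 3 UMIs. It was 45.5, 34.0 and 22.5 CPM in the HFD+F+CCl4 mice and 4.94, 13.6 and 26.3 CPM in the WD+F+CCl4 mice. The NASH mean of 24.5 ± 14.4 CPM (SD, n = 6) was 64.3 times the control mean of 0.380 ± 0.262 CPM (SD, n = 2). Pooling UMIs gave a ratio of 98.4 with a 95% exact interval of 53.5 to 205, which covers counting error only. The 2 models overlapped, with WD+F+CCl4 replicate 3 above HFD+F+CCl4 replicate 3.

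Cxcl16 was more abundant and also clear of the controls in every NASH mouse. It stood at 29.9 and 41.7 CPM in the control mice, at 327.9, 204.5 and 283.7 CPM in the HFD+F+CCl4 mice and at 66.0, 169.3 and 267.1 CPM in the WD+F+CCl4 mice. The lowest NASH mouse, WD+F+CCl4 replicate 1, was also the lowest NASH mouse for Cxcl14, Cxcl9, Cxcl10 and Cxcl13. The mean was 35.8 ± 8.29 CPM in control (n = 2) and 219.7 ± 94.3 CPM in NASH mice (n = 6), a ratio of 6.14.

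The neutrophil ligands varied widely among the NASH mice. Cxcl2 was 4.55 and 3.58 CPM in the control mice, 134.5, 18.8 and 151.6 CPM in the HFD+F+CCl4 mice and 35.7, 17.2 and 67.0 CPM in the WD+F+CCl4 mice. The NASH mean was 70.8 ± 59.0 CPM (n = 6) against 4.07 ± 0.685 CPM (n = 2), a ratio of 17.4. Cxcl1 was scarce, at 0.391 and 0.754 CPM in control and 1.33 to 7.12 CPM in NASH mice (median 2.43), and its control values rest on 18 UMIs in all. Genes that tissue dissociation induces, 12 on the list used, summed to 554 and 569 CPM in the control libraries, to 5055 CPM in HFD+F+CCl4 replicate 1, 1920 CPM in WD+F+CCl4 replicate 3 and 848 to 1289 CPM in the other NASH libraries. In HFD+F+CCl4 replicate 3, the mouse with the highest Cxcl2 level, that list summed to 1289 CPM. Its part in the Cxcl2 levels was not tested.

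The ligands induced by interferon-gamma were not higher in NASH mice. Cxcl10 stood at 76.9 and 104 CPM in the control mice and at 64.0, 22.7, 53.0, 20.3, 27.4 and 60.0 CPM in the NASH mice in the order used above. Its mean was 41.2 ± 19.9 CPM in NASH (n = 6) and 90.4 ± 19.2 CPM in control (n = 2). Cxcl9, at 120.3 and 156 CPM in control, was 99.96, 60.5 and 128.7 CPM in HFD+F+CCl4 and 14.2, 61.4 and 132.9 CPM in WD+F+CCl4 mice. The groups overlapped for Cxcl9, since 2 NASH mice, HFD+F+CCl4 replicate 3 and WD+F+CCl4 replicate 3, were above control replicate 1.

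The lymphoid and stromal ligands overlapped between control and NASH mice as well. Cxcl13 was 0.475 and 0 CPM in control, 11.8, 5.61 and 1.96 CPM in HFD+F+CCl4 and 0.305, 2.19 and 41.0 CPM in WD+F+CCl4 mice, so a single mouse gave most of the NASH mean of 10.5 ± 15.5 CPM (n = 6). Cxcl12 was 12.8 and 38.8 CPM in control, 87.9, 12.7 and 5.48 CPM in HFD+F+CCl4 and 2.07, 1.14 and 4.95 CPM in WD+F+CCl4 mice. It was the only ligand with every WD+F+CCl4 mouse below every HFD+F+CCl4 mouse, as were 5.9% of all genes tested, and none of the 8 had every WD+F+CCl4 mouse above (2.65% of genes). The 2 closest mice, at 5.48 and 4.95 CPM, hardly differed.

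**Figure D1:**
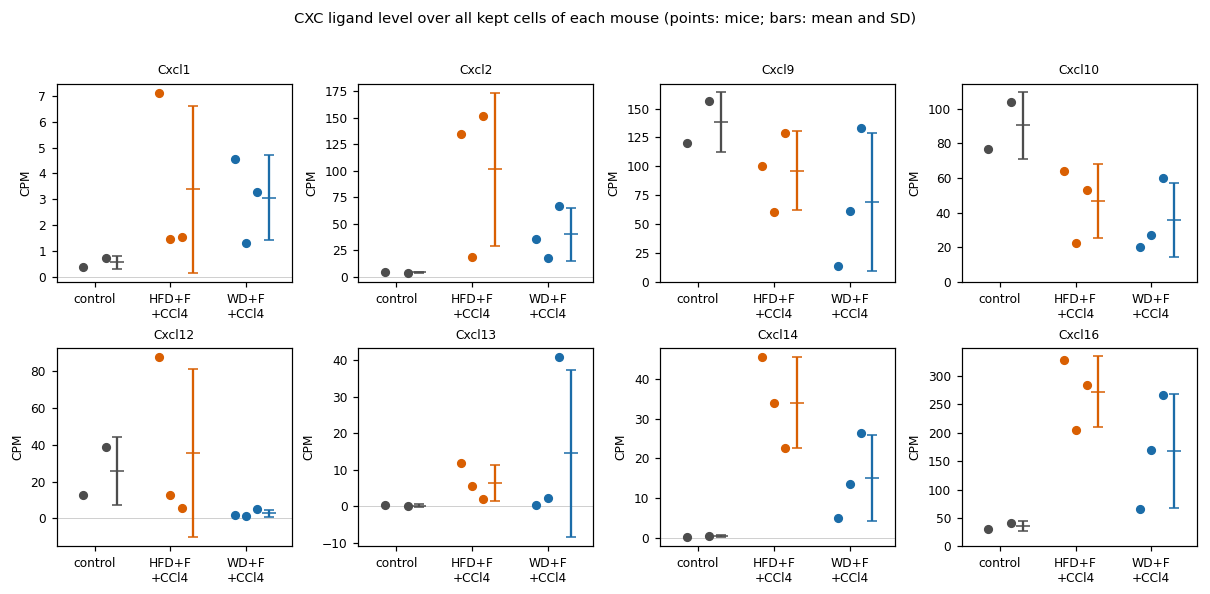
CPM (y axis, linear, from 0) of each CXC ligand over all kept cells of a mouse, by group (x axis, from left the control group and the high-fat and western diet models), where points are mice and the bar beside them is the mean with the SD. Cxcl14 and Cxcl16 lie higher in all 6 NASH mice than in the 2 control mice, Cxcl10 lies lower, and WD+F+CCl4 replicate 3 carries the high Cxcl13 point of 41.0 CPM.

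Ligands differed in the cell type that led. By mean CPM over the mice with at least 20 cells of a type, hepatocytes led for Cxcl1, neutrophils for Cxcl2, macrophages for Cxcl9 and Cxcl10, stellate cells and myofibroblasts for Cxcl12 and Cxcl14, and Kupffer cells for Cxcl13 and Cxcl16. The leading type differed from the next by more than the larger SD for Cxcl2, Cxcl12 and Cxcl14, and its mice did not overlap with those of the next type for Cxcl12 and Cxcl14. Types were ranked over unequal sets of mice, and in the 2 mice with enough stellate cells Cxcl14 was 136.5 and 65.3 CPM there against 76.5 and 62.2 CPM in macrophages, the third type in order, a gap within the spread of the stellate values. For the other 5 ligands the first and second types did not differ beyond their spread. Over the NASH mice alone, conventional dendritic cells led for Cxcl9 (250.02 ± 111 CPM, n = 6), and for Cxcl10 the NK cells led by mean (83.7 ± 137 CPM, median 10.1). Stellate cells reached 20 cells in 2 mice and Kupffer cells in 3, all of them NASH mice. Clustering was run without the 6 ligands that were among the variable genes.

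**Figure D2:**
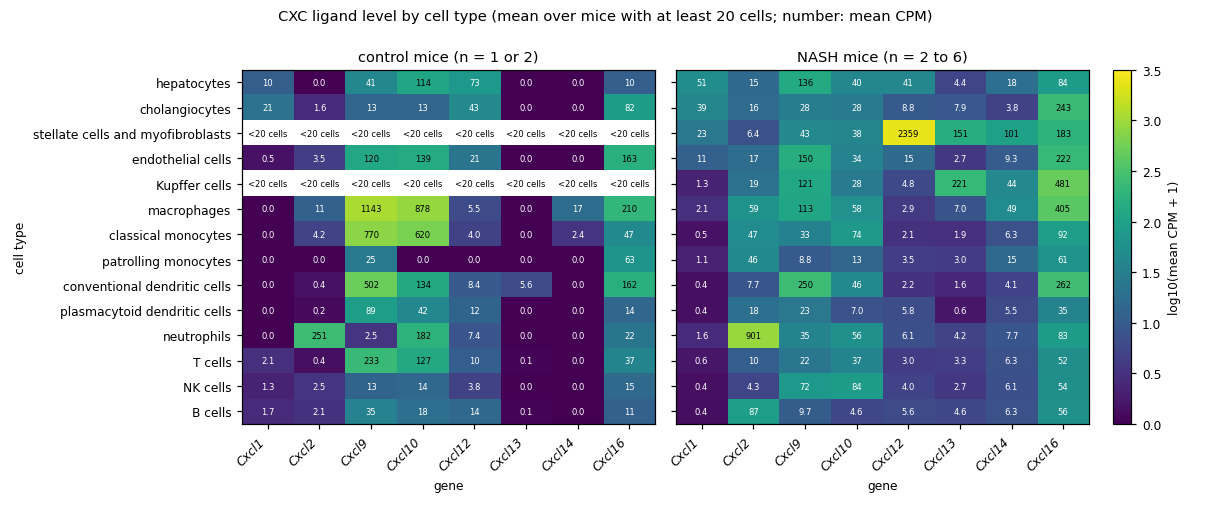
Mean CPM of the 8 CXC ligands (columns) in the marker-named cell types (rows), for control mice (left, 1 or 2 mice) and NASH mice (right, 2 to 6 mice), on a log10(mean CPM + 1) colour scale with the mean CPM written in each cell. Cxcl2 is highest in neutrophils, Cxcl12 in stellate cells and myofibroblasts, Cxcl9 and Cxcl10 in control macrophages, and Cxcl16 is spread over Kupffer cells, macrophages, dendritic cells, endothelium and cholangiocytes.

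Cxcl2, the neutrophil attractant, had its highest level in neutrophils themselves. Its level there was 250.7 CPM in control replicate 1, the one control mouse with enough neutrophils. It was 1657, 299.5 and 1443 CPM in the HFD+F+CCl4 mice and 205.8, 166.7 and 1633 CPM in the WD+F+CCl4 mice. HFD+F+CCl4 replicates 1 and 3 and WD+F+CCl4 replicate 3 were far above the control mouse, while WD+F+CCl4 replicates 1 and 2 were below it. The share of neutrophils with a Cxcl2 UMI set the same mice apart, at 57.9%, 53.4% and 56.3% in the high mice, 13% to 18.6% in the other NASH mice and 7.86% in the control mouse. Thinned to 1000 UMIs per cell the shares were 45.8% to 50.7%, 10.02% to 13.1% and 7.03%. The dissociation list summed in neutrophils to 13021 and 8871 CPM in HFD+F+CCl4 replicate 1 and WD+F+CCl4 replicate 3. It summed to 4013 CPM in HFD+F+CCl4 replicate 3, close to the 4254 CPM of the control mouse, and to 2096 to 3003 CPM in the others. Its part in the Cxcl2 level was not tested.

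Other myeloid cells held less Cxcl2. In macrophages it was 22.0 and 0 CPM in control, 138, 8.98 and 142 CPM in HFD+F+CCl4 and 16.3, 15.7 and 35.2 CPM in WD+F+CCl4 mice, with the same 2 HFD+F+CCl4 mice high. The control macrophages held 90736 and 25744 UMIs of all genes. B cells came second by mean, with 393.5 CPM in the 28 B cells of HFD+F+CCl4 replicate 3 against 13.3 to 53.5 CPM in the other NASH mice. The summed neutrophil markers in those 28 cells were 1932 CPM, within the range of 170 to 2919 CPM over the B cells of the other NASH mice. Those 28 cells held 83856 UMIs of all genes, and the part of neutrophil RNA in their Cxcl2 level was not tested.

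Cxcl1 came from cells of the lobule and ducts. In hepatocytes it was 10.4 CPM in control replicate 1 and 17.2, 39.4, 60.6, 129, 26.2 and 33.7 CPM in the NASH mice, with WD+F+CCl4 replicate 1 highest. There 34.9% of the 352 hepatocytes had a Cxcl1 UMI, against 2.50% to 7.89% in the other mice, or 14.2% against 0.848% to 3.60% after thinning to 1000 UMIs. Cholangiocytes, the cells lining the bile ducts, had 19.5 and 22.1 CPM in control and 33.1, 31.3, 38.1, 31.7 and 59.5 CPM in NASH mice. The control values rest on 7 UMIs in all, and no NASH mouse was below them. Stellate cells had 16.1 and 30.5 CPM in HFD+F+CCl4 replicates 1 and 2.

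Cxcl9 and Cxcl10 were far lower in the classical monocytes and macrophages of NASH mice. In classical monocytes, the blood-derived precursors, Cxcl9 was 547 and 993 CPM in control and 5.00, 16.5, 83.2, 7.47, 41.6 and 44.5 CPM in NASH mice. Cxcl10 in the same cells was 456 and 785 CPM in control and 173.5, 26.9, 114, 29.6, 35.5 and 66.3 CPM in NASH mice. The groups did not overlap for either gene, and the control cells lay mostly in the cluster led by Stxbp6 and Cd177, 371 of 412 and 142 of 179, which held at most 2 classical monocytes of any NASH mouse. How many of all genes separated the groups in classical monocytes was not counted. Few cells carried the signal. A Cxcl9 UMI was seen in 12.4% and 9.50% of control and 0.942% to 5.19% of NASH classical monocytes, and the richest 1% of these cells held 50% to 100% of the Cxcl9 UMIs in the NASH mice.

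Macrophages held the highest Cxcl9 level of any type with the clusters used here, in few control cells. The 26 macrophages of control replicate 1 gave 1509.9 CPM from 137 UMIs and the 21 of control replicate 2 gave 776.9 CPM from 20 UMIs. The 1711 to 3161 macrophages of a NASH mouse gave 94.6, 59.1, 203.5, 26.0, 77.9 and 219.6 CPM. Cxcl10 in the same cells was 1289 and 466 CPM in control and 17.6 to 105 CPM in NASH mice. These control levels depend on the clustering. At a Leiden resolution of 0.42 the control mice had 14 and 3 macrophages, too few for a level. The macrophage means over 6 mice were then 89.6 CPM for Cxcl9 and 60.4 CPM for Cxcl10. With the ligands among the variable genes they were 79.9 and 27.4 CPM, also over 6 mice. The pool of monocytes and macrophages differed in its mix, with 412 and 179 classical monocytes, 26 and 21 macrophages and 32 and 13 patrolling monocytes in the control mice, against 256 to 2548, 1711 to 3161 and 1264 to 3274 in the NASH mice. Kupffer cells were in the pool too, 4 and 0 in the control mice and 5 to 417 in the NASH mice. A change of mix and a change within a type cannot be told apart in that pool. Over it, these 2 ligands were below both control mice in every NASH mouse, as were 14.5% of the 16244 genes tested there, and Cxcl1, Cxcl2, Cxcl13, Cxcl14 and Cxcl16 were above (25.8% of genes).

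Dendritic and endothelial cells of NASH mice overlapped with those of control mice for Cxcl9. In conventional dendritic cells, which present antigen to T cells, Cxcl9 was 689 and 315 CPM in control and 239.8, 221, 306, 121, 174 and 437.5 CPM in NASH mice. In endothelial cells it was 85.4 and 154 CPM in control and 285, 123, 97.8, 6.20 and 236 CPM in the 5 NASH mice with enough cells. Cxcl10 in endothelial cells was 137 and 142 CPM in control and 18.6 to 49.1 CPM in NASH mice, without overlap. Of the genes tested in endothelial cells, 12.9% lay below control in every NASH mouse. Kupffer cells had 78.1, 220 and 64.4 CPM of Cxcl9 in the 3 mice with enough of them.

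**Figure D3:**
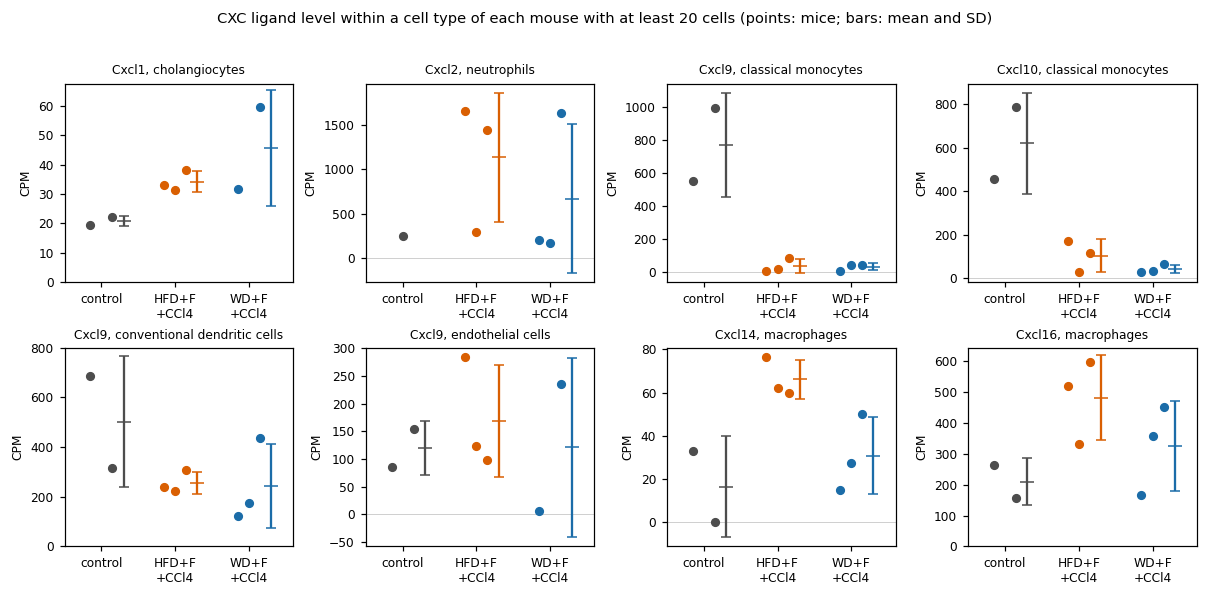
CPM (y axis, linear, from 0) of a CXC ligand within one cell type of each mouse with at least 20 such cells, by group (x axis, from left the control group and the high-fat and western diet models), where points are mice and the bar beside them is the mean with the SD. Cxcl9 and Cxcl10 in classical monocytes separate the 2 control mice from the NASH mice, Cxcl9 in dendritic and endothelial cells does not, and Cxcl2 in neutrophils splits the NASH mice into 3 at 1443 to 1657 CPM and 3 at 166.7 to 299.5 CPM.

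Cxcl14 lay in macrophages, Kupffer cells and the stroma. In macrophages it was 33.1 CPM in control replicate 1, from 3 UMIs of 1 cell, and 0 CPM in control replicate 2, whose 21 macrophages held 25744 UMIs. The Cxcl14 level was 76.5, 62.2 and 60.0 CPM in the HFD+F+CCl4 mice and 15.1, 27.4 and 50.2 CPM in the WD+F+CCl4 mice, and the 2 models did not overlap in this type. How many of all genes separated the models in macrophages was not counted. Kupffer cells, the resident macrophages of the sinusoid, had 50.03, 51.1 and 30.8 CPM in the 3 mice with enough of them. Stellate cells had 136.5 and 65.3 CPM in HFD+F+CCl4 replicates 1 and 2. Patrolling monocytes, which crawl along vessel walls, had 22.2, 13.1 and 8.38 CPM in HFD+F+CCl4 and 5.38, 22.0 and 17.5 CPM in WD+F+CCl4 mice. Their one control mouse with enough cells had none, in 79183 UMIs of 32 cells, where a level in the NASH range can be missed.

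Cxcl14 was detected in 5.26% to 21.6% of NASH macrophages, at medians of 5157 to 6542 UMIs per cell. In B cells the share was 0% to 2.53% at medians of 1631 to 2350 UMIs. Thinned to 1000 UMIs the shares were 1.21% to 6.10% in macrophages and 0% to 0.881% in B cells, and in each NASH mouse the macrophage share was the higher. The part of RNA free in the droplets in either share was not tested. Of all Cxcl14 UMIs of a NASH mouse, macrophages held 62.7% ± 6.86 (SD, n = 6).

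Cxcl16 was widely shared among myeloid, endothelial and duct cells. In macrophages it was 264.5 and 155.4 CPM in control, 520.7, 330.5 and 596.8 CPM in HFD+F+CCl4 and 167, 358.6 and 453.6 CPM in WD+F+CCl4 mice, with WD+F+CCl4 replicate 1 inside the control range. Kupffer cells had 587, 419 and 438 CPM. Conventional dendritic cells had 171 and 152 CPM in control and 314, 228, 437, 189, 201 and 204 CPM in NASH mice, all of them above control. Cholangiocytes had 97.7 and 66.3 CPM in control and 191, 224, 266.5, 269 and 266 CPM in NASH mice, also without overlap. The 32 cholangiocytes of control replicate 2 held 45253 UMIs of all genes. How many of all genes separated the groups in conventional dendritic cells or cholangiocytes was not counted, so nothing is read from this. Endothelial cells had 149 and 177 CPM in control and 238.5, 195, 289, 124 and 265.5 CPM in NASH mice, with 1 mouse below control. A Cxcl16 UMI was seen in 51.4% to 84.8% of NASH macrophages.

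Cxcl12 belonged to the stroma. Stellate cells and myofibroblasts, which lay down collagen, had 3091 CPM in HFD+F+CCl4 replicate 1 and 1628 CPM in HFD+F+CCl4 replicate 2, and 80.6% and 78.9% of them had a UMI. Hepatocytes, next in order, had 18.7 to 72.6 CPM over 7 mice, and endothelial cells 4.33 to 45.3 CPM. HFD+F+CCl4 replicate 1, the mouse with the highest Cxcl12 over all cells, had 160 stellate cells, while the WD+F+CCl4 mice had 3, 4 and 15. How far the Cxcl12 difference between the models follows that number was not tested.

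Cxcl13, the B cell attractant, was highest in Kupffer cells. It was 126.5, 144.5 and 392 CPM in the Kupffer cells of HFD+F+CCl4 replicates 1 and 2 and WD+F+CCl4 replicate 3, and 23.5%, 17.1% and 51.3% of these cells had a UMI. Macrophages had 0 CPM in both control mice and 0.0813 to 22.3 CPM in NASH mice. The 26 and 21 control macrophages held 90736 and 25744 UMIs, too few to tell 0 from a level in the NASH range. Stellate cells differed between 2 mice of the same group, at 2.54 CPM in HFD+F+CCl4 replicate 1 and 300.3 CPM in HFD+F+CCl4 replicate 2. The mouse with the high Cxcl13 level over all cells also had the most Kupffer cells, 417, against 5 to 289 in the other NASH mice.

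**Figure D4:**
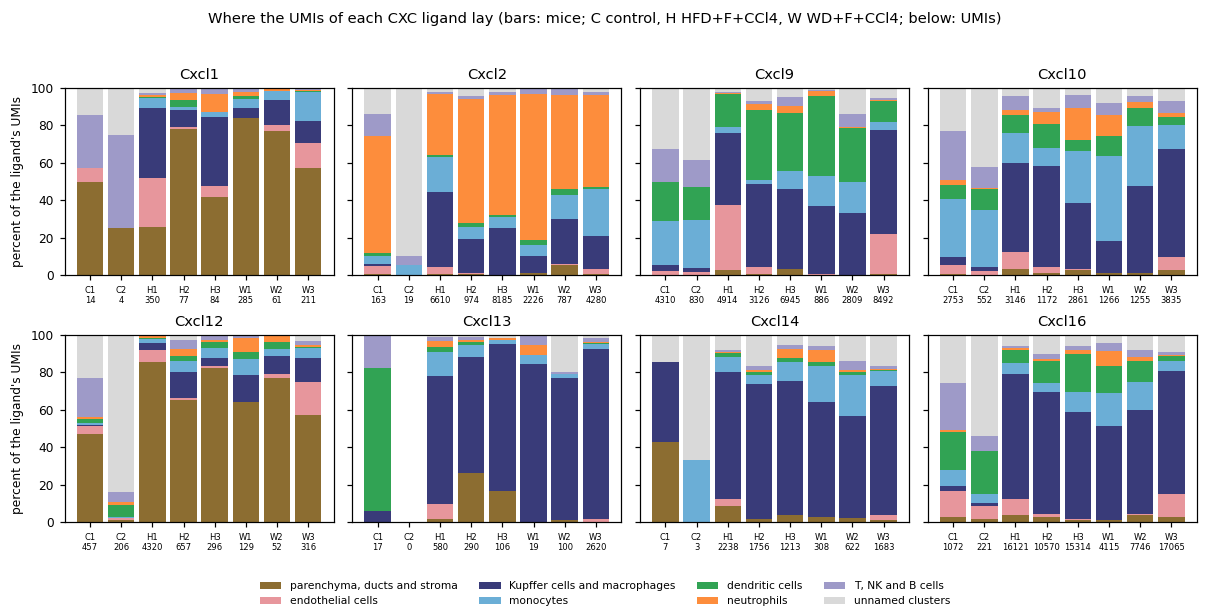
Percent of each ligand's UMIs (y axis, stacked to 100) that lay in each set of cell types, one bar per mouse with the UMIs of that mouse written below it. Kupffer cells and macrophages hold most Cxcl14 and Cxcl16 UMIs of the NASH mice, neutrophils hold 32.5% to 77.9% of their Cxcl2 UMIs, and unnamed clusters hold 0% to 89.5% of a ligand's UMIs in the control mice.

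Shares of all UMIs, which also depend on how many cells of a type were caught, ranked the sources differently from levels. Macrophages held 62.7% of Cxcl14 and 55.8% ± 4.11 of Cxcl16 UMIs in the NASH mice (n = 6), although stellate cells and Kupffer cells led by level. Neutrophils held 56.6% ± 15.9 of Cxcl2, with 21.8% in macrophages, and in HFD+F+CCl4 replicate 1 macrophages held more (38.6%) than neutrophils (32.5%). Cxcl9 was divided between macrophages (39.3%) and conventional dendritic cells (27.1%), and Cxcl10 between macrophages (41.8%) and classical monocytes (20.4%). Stellate cells held 58.3% ± 19.7 of Cxcl12 although they were 0.308% of all kept cells. Kupffer cells held 47.6% ± 26.3 of Cxcl13. Cxcl1 was divided between cholangiocytes (30.05%) and hepatocytes (28.2%), and in WD+F+CCl4 replicate 1 hepatocytes held 83.9%. In the control mice classical monocytes held 24.5% ± 1.07 of Cxcl9 and 30.5% ± 0.671 of Cxcl10 (n = 2), and unnamed clusters held 53.6% ± 43.0 of Cxcl12.

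Genes with patterns most like each ligand were ranked over 82 profiles, each a type in 1 mouse with at least 50 cells, by Pearson r of log2(CPM + 1) among 9378 genes. Profiles of 1 mouse share a library, and profiles of 1 type share its depth, so r is a description. Cxcl14 was closest to C1qc (r = 0.82), Ms4a7 (0.81) and C1qa (0.80), of which C1qa and C1qc encode complement subunits. Cxcl13 was closest to Vsig4 (0.87), Marco (0.84) and Cd5l (0.83), which are Kupffer cell genes. Cxcl12 was closest to C1s1 (0.86), Rarres2 (0.84) and Tmem56 (0.80), Cxcl1 to Palmd (0.84), Lurap1l (0.84) and the keratin Krt8 (0.83), and Cxcl16 to Cttnbp2nl (0.80), Anxa3 (0.80) and Fabp5 (0.76).

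Cxcl10 was closest to Gbp2 (r = 0.77), Irf1 (0.63) and Tbkbp1 (0.60), the first a guanylate-binding protein and the second a transcription factor of the interferon response. Cxcl9 was closest to Zmynd15 (0.67), Dnase1l3 (0.66) and Fscn1 (0.63). Cxcl2 was closest to Zfp36 (0.80), Ier3 (0.78) and Trem1 (0.75), and Zfp36 and Ier3 are on the dissociation list. Among the ligands, the closest pairs were Cxcl14 with Cxcl16 (0.57), Cxcl1 with Cxcl12 (0.56), Cxcl13 with Cxcl14 (0.55) and Cxcl9 with Cxcl10 (0.49).

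The signalling receptors lay mainly in leukocytes. Cxcr2 was 1162 CPM in the neutrophils of control replicate 1 and 650.8 ± 123 CPM in those of the NASH mice (SD, n = 6), and Cxcr1 was 16.6 ± 6.60 CPM there. Cxcr3 was highest in T cells, at 193 ± 18.5 CPM in control (n = 2) and 96.8 ± 11.2 CPM in NASH mice (n = 6). Cxcr6 was 733.7 ± 54.9 CPM in control and 354.3 ± 107 CPM in NASH T cells. Cxcr5 was highest in B cells, at 95.7 ± 15.2 CPM in control and 73.1 ± 14.6 CPM in NASH mice. Cxcr4 was 528 CPM in control and 246 ± 82.7 CPM in NASH neutrophils, and 161 ± 74.0 CPM in NASH patrolling monocytes. The atypical receptors, which take up ligand without signalling through G proteins, were highest by mean in endothelium, Ackr1 at 9.88 ± 2.75 CPM in control and 152 ± 79.6 CPM in NASH mice (n = 5) and Ackr3 at 26.3 ± 20.4 and 58.9 ± 40.9 CPM. Stellate cells held Ackr3 too, at 30.5 and 8.70 CPM in HFD+F+CCl4 replicates 1 and 2, against 20.4 and 66.0 CPM in the endothelial cells of these mice.

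**Figure D5:**
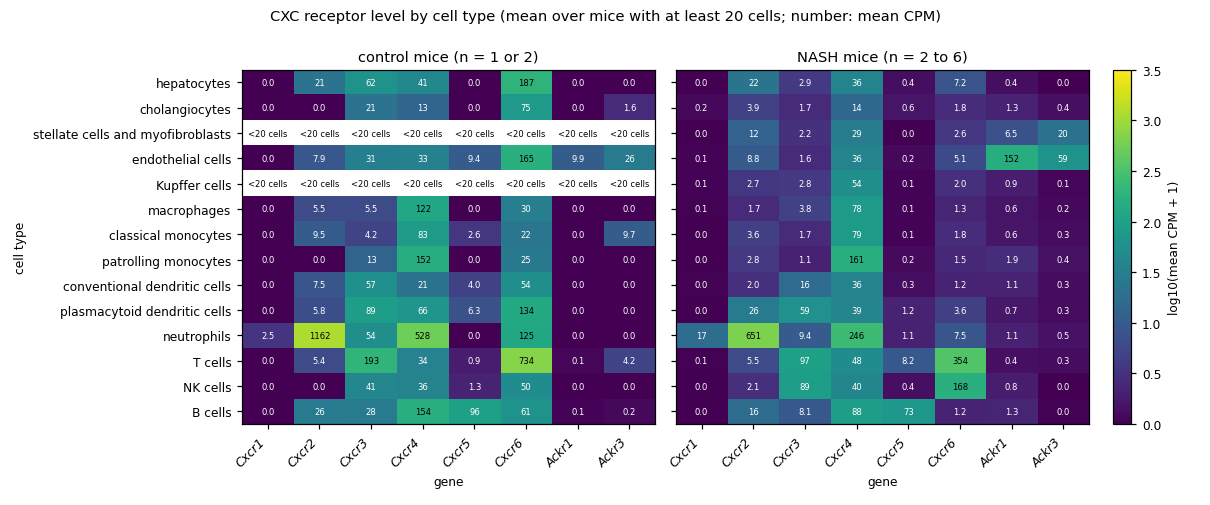
Mean CPM of 8 CXC receptors (columns) in the marker-named cell types (rows), for control mice (left, 1 or 2 mice) and NASH mice (right, 2 to 6 mice), on a log10(mean CPM + 1) colour scale with the mean CPM written in each cell. Cxcr2 stands in neutrophils, Cxcr3 and Cxcr6 in T cells, Cxcr5 in B cells and Ackr1 in endothelial cells.

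The rest of the pathway, 46 genes that are not among the 8 ligands, was tested with edgeR's quasi-likelihood test over all genes that passed the filter, with Benjamini-Hochberg adjustment. These 46 genes were listed with earlier results of these data known. The list's counts and medians are therefore set beside those of all genes as a description, here and in each cell type below. Over all kept cells, 22 of the 44 measured pathway genes passed an adjusted p of 0.05 between NASH and control mice, 12 higher and 10 lower, against 26% of the 19787 genes tested (12.3% higher, 13.7% lower). The median log2 fold change was 0.42 for the list and -0.03 for all genes. Scaled by library size alone the median over all genes was -0.18, the list gave 10 higher and 10 lower, and the higher share of all calls was 35.8% in place of 47.2%. The largest rise was that of Pf4, a platelet and macrophage CXC ligand, at 5.89 ± 1.16 (SE) on the log2 scale (adjusted p = 0.00956), from 1.34 and 3.96 CPM in control to 27.6 to 248.5 CPM in NASH mice. Cxcr1 rose by 3.93 ± 1.00 (adjusted p = 0.0254), with 2 control UMIs in all and a pooled ratio of 17.6 (95% exact interval 4.83 to 146).

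The 3 lymphocyte receptors Cxcr3, Cxcr5 and Cxcr6 fell over all kept cells. Cxcr6 changed by -3.49 ± 0.48 on the log2 scale (adjusted p = 0.00251) and Cxcr5 by -3.08 ± 0.43 (adjusted p = 0.0027). Cxcr3 fell too, by 2.81 ± 0.27 (adjusted p = 0.000763). Ifng, the inducer of Cxcl9 and Cxcl10, changed by -3.07 ± 0.54 (adjusted p = 0.00631), from 42.6 and 45.4 CPM to 1.65 to 8.86 CPM, and Cxcl11, their close relative, by -2.82 ± 0.42 (adjusted p = 0.00341). T cells made up 3731 of 10788 kept cells in control replicate 1, 177 of 4168 in control replicate 2 and 394 to 1317 cells of 9846 to 11999 in the NASH mice. Among genes of the interferon-gamma route, Ifngr1 and Ifngr2 rose, Jak2, Irf1 and Socs1 fell, and Jak1 did not pass. Grk3, Rgs2, Il1b, Arrb2, Il17ra and Gnai2 were also called higher and Grk6 lower. Adam10 and Adam17, which shed Cxcl16 and are given for that role after their values were seen, rose by 1.04 ± 0.14 (adjusted p = 0.00229) and 1.31 ± 0.16 (adjusted p = 0.00171). Comparing the models with each other, edgeR called 0 of the 44 pathway genes and 0% of the 19787 genes, with 2 pathway genes at an unadjusted p under 0.05, and DESeq2 called 0 of them as well.

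Within monocytes and macrophages, 8 of 42 pathway genes passed, 3 higher and 5 lower, against 8.5% of the 16244 genes tested (4.3% higher, 4.2% lower), and the list's median log2 fold change was 0.07 against 0.13 for all genes. Cxcl11 fell by 5.64 ± 0.62 (adjusted p = 0.00269), from 55.6 and 92.3 CPM to 0.498 to 2.46 CPM. By number of cells the pool was mostly classical monocytes in control and mostly macrophages and patrolling monocytes in each NASH mouse. By UMIs, classical monocytes held 18730435 of the pool's 34412799 in WD+F+CCl4 replicate 1. Within classical monocytes Cxcl11 was 57.7 and 108.7 CPM in control and 0 to 3.03 CPM in NASH mice. Its companions of the interferon route fell as well, Socs1 by 2.53 ± 0.31 (adjusted p = 0.0041) and Irf1 by 1.20 ± 0.19 (adjusted p = 0.00798), and Adam10 was called higher. Pf4 rose by 5.67 ± 1.32 (adjusted p = 0.0333), while within macrophages it was 88.17 and 0 CPM in control and 88.13 to 536 CPM in NASH mice, which overlap, and how far the mix bears on its rise was not tested. Arrb2, an arrestin that uncouples receptors, rose by 1.29 ± 0.19 (adjusted p = 0.00674). Cxcr6 fell by 3.496 ± 0.56 (adjusted p = 0.00894) on 26 control UMIs. Without control replicate 1 the count was 2, without control replicate 2 it was 4, and without HFD+F+CCl4 replicate 3 it was 13.

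Endothelial cells had 5 of 38 pathway genes called, 2 higher and 3 lower, against 2.99% of the 10927 genes tested (0.888% higher, 2.1% lower), with a median log2 fold change of 0.16 against 0.04. Ackr1, the chemokine carrier of venular endothelium, rose by 4.10 ± 0.68 (adjusted p = 0.0109), from 7.94 and 11.8 CPM to 83.2 to 289 CPM. Its control level rests on 9 UMIs, and the pooled ratio was 14.3 with a 95% exact interval of 7.53 to 31.4. Sinusoidal and vascular endothelial cells were kept as 1 type here, and the part of their mix in this rise was not tested. Rgs2, which turns off G protein signalling, rose by 2.15 ± 0.40 (adjusted p = 0.0178). The 3 that fell were lymphocyte genes, Cxcr6 at -5.23 ± 0.63 (adjusted p = 0.00288), Cxcr3 at -4.47 ± 0.74 (adjusted p = 0.0105) and Ifng at -4.08 ± 0.83 (adjusted p = 0.0248). The 8 T cell markers summed to 980 and 733 CPM in the control endothelial cells and to 18.6 to 256 CPM in the NASH ones, and their part in these falls was not tested. The count was 0 without control replicate 1, 2 without control replicate 2, 2 without doublets, and 3 without HFD+F+CCl4 replicate 1 or 2.

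Dendritic cells had 13 of 38 called, 6 higher and 7 lower, against 15.8% of the 12768 genes tested (7.36% higher, 8.41% lower), with a median log2 fold change of 0.32 against -0.02. By library size alone it was 4 higher and 8 lower, with a median of -0.17 over all genes and 29.6% of all calls higher in place of 46.7%. The pool held 405 and 277 plasmacytoid and 174 and 192 conventional cells in the control mice, against 20 to 449 and 332 to 965 in the NASH mice, and the part of that mix was not tested. Cxcr6 fell by 5.53 ± 0.25 (adjusted p = 1.29e-05), Ifng by 4.86 ± 0.65 (adjusted p = 0.00217) and Cxcr5 by 2.90 ± 0.77 (adjusted p = 0.0325). In conventional dendritic cells the T cell markers summed to 213 and 499 CPM in control and to 36.3 to 82.5 CPM in NASH mice, and their part was not tested. Cxcl11 fell by 1.56 ± 0.44 (adjusted p = 0.0397), a change that was 0.004 without control replicate 1. Grk3, a kinase that desensitises receptors, rose by 1.57 ± 0.27 (adjusted p = 0.00585). Rgs2, Arrb2, Il17ra and Ifngr1 were also called higher and Cxcr3, Socs1 and Irf1 lower. Pf4 rose from 0 UMIs in both control mice to 2.79 to 13.2 CPM (adjusted p = 0.0183), at least 10.5-fold higher against a floor of 3 UMIs over the control group, beside macrophage markers at 82.5 and 60.2 CPM in control and 237 to 1184 CPM in NASH conventional dendritic cells. The count was 4 without either control replicate and 8 without HFD+F+CCl4 replicate 3, WD+F+CCl4 replicate 1 or doublets.

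T and NK cells, the main bearers of Cxcr3 and Cxcr6, had 13 of 38 called, 5 higher and 8 lower, against 9.83% of the 12977 genes tested (5.61% higher, 4.22% lower), with a median log2 fold change of 0.22 against 0.02. By library size alone it was 2 higher and 8 lower, with 49.7% of all calls higher in place of 57.1%. Jak2, Cxcr6, Irf1, Cxcr3, Dpp4 and Plcb2 were called lower and Arrb2 higher. Cxcl11 fell by 5.24 ± 1.11 (adjusted p = 0.0166), from 4.29 and 22.2 CPM to 0 to 1.11 CPM. Grk3 rose by 2.55 ± 0.52 (adjusted p = 0.0142), Ifngr2 by 1.53 ± 0.33 (adjusted p = 0.0189) and Rgs2 by 1.41 ± 0.36 (adjusted p = 0.0365). Pf4 rose by 4.71 ± 1.32 (adjusted p = 0.0497), beside macrophage markers that summed in T cells to 51.98 and 35.7 CPM in control and 826 to 2025 CPM in NASH mice. The count was 0 without control replicate 1, 4 without control replicate 2, 8 without WD+F+CCl4 replicate 2 and 6 without doublets, and most control T cells, 3021 of 3731 in control replicate 1, lay in a cluster that held at most 39 T cells of a NASH mouse.

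B cells, the bearers of Cxcr5, had 7 of 36 called, 4 higher and 3 lower, against 11.3% of the 9703 genes tested (6.46% higher, 4.8% lower), with a median log2 fold change of -0.15 against -0.02. Cxcr6 fell by 6.78 ± 0.95 (adjusted p = 0.000379), beside T cell markers at 179 and 670 CPM in control and 0 to 41.0 CPM in NASH B cells, all 8 at 0 in HFD+F+CCl4 replicate 3. Pf4 rose by 6.48 ± 1.36 (adjusted p = 0.00533) on 3 control UMIs, with a pooled ratio of 79.1 (95% exact interval 26.8 to 386), beside macrophage markers at 31.9 and 22.0 CPM in control and 358 to 3498 CPM in NASH B cells. Grk3 rose by 2.29 ± 0.41 (adjusted p = 0.00163), Rgs2 by 1.37 ± 0.27 (adjusted p = 0.00358) and Arrb2 by 0.90 ± 0.28 (adjusted p = 0.0483). Dpp4, a protease that trims CXC ligands, fell by 0.86 ± 0.24 (adjusted p = 0.0292), and Irf1 was called lower. The part of macrophage and T cell RNA in these changes was not tested. The count was 3 without control replicate 1 or doublets and 4 without WD+F+CCl4 replicate 2.

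Outside monocytes and macrophages the ligands themselves gave these counts of mice without overlap between control and NASH. In endothelial cells Cxcl1 and Cxcl14 were above (13.3% of genes) and Cxcl10 below (12.9%). In dendritic cells Cxcl2, Cxcl14 and Cxcl16 were above (12.1%) and none below (23.1%). In T and NK cells Cxcl14 was above (13.1%) and none below (15.4%), and in B cells Cxcl2 and Cxcl16 were above (8.48%) and none below (12.9%). Between the 2 models, every WD+F+CCl4 mouse lay below every HFD+F+CCl4 mouse for Cxcl12 and Cxcl16 in dendritic cells (7.22% of genes) and for Cxcl12 in B cells (8.35%). No ligand did so in endothelial cells (7.9%), monocytes and macrophages (7.31%) or T and NK cells (9.48%). No ligand had every WD+F+CCl4 mouse above in endothelial cells (5.32%), monocytes and macrophages (4.33%), dendritic cells (9.06%), T and NK cells (2.37%) or B cells (4.29%). All 8 ligands passed the filter in monocytes and macrophages and 7 in each of these other types, and since the ligands were chosen from these levels nothing is read from the counts.

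Other CXC ligands were outside the 8. Cxcl5 was 45.6 ± 32.4 CPM in the cholangiocytes of 5 NASH mice and 27.1 and 261 CPM in the stellate cells of HFD+F+CCl4 replicates 1 and 2. Cxcl11 was 83.2 ± 36.1 CPM in control classical monocytes. Cxcl3 reached at most 10.02 CPM in neutrophils and 12.98 CPM in macrophages of a NASH mouse. Cxcl15 reached at most 0.277 CPM and Cxcl17 at most 2.11 CPM in a type of a mouse with at least 20 cells. With the clusters used here neutrophils could not be tested, since 1 control mouse had at least 20 of them.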

How the data were processed

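Liver cells of 8 mice were measured with droplet libraries (10x Genomics 3′ chemistry). The authors deposited UMI counts per gene and barcode, produced by Cell Ranger against GRCm38, as 1 matrix in which a barcode's suffix marks the mouse. The file header and the methods name different Cell Ranger versions, and the sources used here state nothing on strand, on removal of free RNA or doublets, or on equalizing depth across libraries. Free RNA and doublets in the deposited counts would add a gene's UMIs to cells that do not express it.

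The study's own limits were applied to barcodes, over 500 genes and a mitochondrial share below 25%. Cells were clustered with scanpy 1.11.5 on 1994 variable genes, from 2000 of which the 6 CXC ligands among them were removed, with 30 principal components, 20 neighbours and a Leiden resolution of 1.0, which gave 33 clusters. Clusters were named from marker lists, and stayed unnamed where cycling, red cell or granulocyte progenitor genes led, where liver-secreted RNA or low UMIs came with no own marker among the top 10 genes, or where another type had more markers there. Doublets were kept. Scrublet's own limit called 0% to 13.8% per library, so the alternative removed the highest scores, 0.8% per 1000 barcodes.

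CPM was computed per mouse and type from at least 20 cells. UMIs summed per mouse were tested with edgeR 4.0.16 (glmQLFit and glmQLFTest, TMM, filterByExpr, Benjamini-Hochberg over all genes tested) in 1 fit of the 3 groups, with NASH as the mean of both models and at least 2 mice a group. The SE of an edgeR log2 fold change was computed back, as that change divided by the square root of its F statistic. It therefore adds nothing to the p-value. DESeq2 1.42.0 in R 4.3.3 was an alternative. On simulated counts for NASH against control over all kept cells (19329 genes), edgeR recovered 38.5% of 200 genes changed by 2 on the log2 scale, with 2 false calls. Exact 95% intervals and the floor of 3 UMIs cover counting error only.

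The 8 ligands, the 46 pathway genes and the marker lists were chosen with earlier results of these data known. At most 6 called pathway genes were given with values per test, those with the largest fold changes, besides the receptors, Adam10, Adam17 and the 3 genes most like each ligand, and results of 1 gene counted in the list are not reported here. Gene positions and coding sequence came from GENCODE M21 on GRCm38, promoters from RefSeq on GRCm38.p6, where 7 of the 8 ligands had an entry. The labels name no batch. Mice of a group are the replicates, and p-values measure the spread between them.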

Additional observations from a re-analysis of the deposited data

Results flagged for a closer look

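Barcodes that failed the limits on genes or mitochondrial UMIs were outside every comparison, and their ligand levels are given next as a description. How many of all genes separated the groups there was not counted, so nothing is read from a lack of overlap. Cxcl2 had a mean of 239.8 ± 136 CPM over the left-out barcodes of the NASH mice (24.4 to 437.6 CPM, n = 6). In the 2 control mice it was 1.14 and 2.41 CPM, from 1 and 2 UMIs. Cxcl14 had a mean of 9.35 ± 6.64 CPM (3.20 to 20.8 CPM, n = 6), against 1.14 and 1.20 CPM, from 1 UMI in each control mouse. The lowest NASH value, 3.20 CPM in WD+F+CCl4 replicate 1, also rests on 1 UMI, out of 313037 against 876278 and 830246 in the control mice. By mean Cxcl1 (6.37 against 1.20 CPM), Cxcl13 (19.6 against 0) and Cxcl16 (89.3 against 38.3) were also higher in the NASH mice but overlapped with control. Cxcl9, Cxcl10 and Cxcl12 were lower by mean. Cxcl9 and Cxcl12 overlapped, while Cxcl10 was at most 38.1 CPM in a NASH mouse and at least 39.9 CPM in a control mouse. Which cells these barcodes held was not tested.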

How the results depend on the processing

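The count of pathway genes called between NASH and control mice over all kept cells was 22, and 12 to 22 with 1 mouse left out, lowest without control replicate 1. With 1 control mouse left, that mouse is assumed to vary like the other groups. The same ranges were 0 to 6 for endothelial cells (5 with all mice), 2 to 13 for monocytes and macrophages (8), 4 to 14 for dendritic cells (13), 0 to 13 for T and NK cells (13) and 3 to 8 for B cells (7). Without a filter on low counts, endothelial cells gave 11 and B cells 16. Without doublets the counts were 2 in endothelial cells, 8 in dendritic cells, 6 in T and NK cells and 3 in B cells. DESeq2 gave 14 in monocytes and macrophages, where it called 1988 genes in all against 1381 with edgeR. HFD+F+CCl4 mice alone against control gave 5 in T and NK cells. Calls over all genes were not set beside the other counts here, so nothing about the list is read from these shifts. The same holds for the block described next, and for the counts without a mouse or doublets given per cell type above. The cause of these shifts was not tested.

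Replicate numbers were not taken as pairing the mice, since the deviations of same-numbered mice from their group means had correlations of -0.6126 to 0.0526. With the replicate number as a block the counts were 14 over all kept cells, 0 in endothelial cells, 5 in monocytes and macrophages and 7 in T and NK cells. Between the 2 models 0 pathway genes were called under every alternative run.

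Of the fold changes of named genes and the ligands' mean levels in their leading types, 629 values kept direction and side of the threshold (for a mean, moved by less than 1 SD), 113 fold changes kept direction alone, and 2 turned. Without control replicate 1, fold changes that kept direction alone outnumbered those that kept both, and they were next most frequent without control replicate 2. For means the limit of 1 SD was loose. That of Cxcl10 in macrophages was 263 CPM, and 27.4 CPM with the ligands among the variable genes. Cxcl11 in dendritic cells (log2 fold change) ranged from -2.045 to 0.004 with 1 mouse left out, highest without control replicate 1, and Arrb2 in B cells was -0.171 at a resolution of 0.42. The leading types of Cxcl9 and Cxcl10 became conventional dendritic cells and classical monocytes at that resolution and without control replicate 1, and with the ligands among the variable genes classical monocytes led for both. Cxcl13 was led by stellate cells when either HFD+F+CCl4 replicate 1 or else WD+F+CCl4 replicate 3 was left out, and Cxcl1 by cholangiocytes without WD+F+CCl4 replicate 1. Leading types were the same for 6 to 8 of the 8 ligands with 1 mouse left out, and 5 to 7 ligands did not overlap between groups, where 16.8% to 25.7% of all genes lay above and 26.3% to 39.8% below in every NASH mouse. With more than 1000 genes per cell, monocytes and macrophages could not be tested, since 1 control mouse had enough cells. Neutrophils could be tested at a resolution of 0.42 alone, with 3 of 38 pathway genes called, all lower, against 425 of 10307 genes in either direction. The control values rest on 10 UMIs for Cxcl14, 17 for Cxcl13 and 18 for Cxcl1.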
